A study of Xenopus laevis with 16 samples.

Results

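Nodal, activin and BMP signals were followed in Xenopus laevis embryos depleted of POUV proteins, the frog relatives of the mammalian pluripotency factor Oct4. The genes were taken from a 2-colour Agilent array by their names and descriptions: 3 named probes (gdf3-A-prov, FRL1 and MGC81734, which is Tgif2), every gene name that began with or held BMP, Xnr or nr with a number from 1 to 6, Nodal, Smad, GDF, inhibin beta, activin and its receptors, chordin, noggin, follistatin, lefty or cerberus, and every description that held these words. This rule found 48 of the 21495 probes of the array, 30 by gene name and 18 by description only. Of these, 40 were genes of the pathways: 8 Nodal and activin ligands, 1 co-receptor, 9 BMP and GDF ligands, 7 secreted antagonists, 2 BMP1-type proteases, 7 receptors, and 6 Smads or Smad partners. The other 8 shared only letters with the rule: 7 nuclear receptors named nr or Nr, and NR1, a subunit of a glutamate receptor. No probe of BMP4 was found by this rule.

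Nodal-related proteins and activins are secreted ligands of the TGF-beta family that induce mesoderm and endoderm in the vegetal and marginal cells of the frog blastula, acting through type I and type II receptor kinases, an EGF-CFC co-receptor, and Smad2 and Smad3 with partners such as FoxH1. BMPs act through related receptors and Smad1 and favour ventral and epidermal fates, while the organizer secretes chordin, noggin and cerberus, which bind these ligands outside the cell. Lefty is a secreted inhibitor of Nodal signalling whose gene is itself switched on by Nodal.

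PVD2 embryos had received a mixture of morpholinos against the POUV genes Xlpou25, Xlpou60 and Xlpou91, and control embryos a control morpholino. Each of the 2 blastomeres was injected with 60 ng at the 2-cell stage, 120 ng per embryo. Samples were PVD2 animal caps, control animal caps, PVD2 whole embryos and control whole embryos, each at stage 10 (early gastrula) and stage 9 (late blastula), with 2 replicates of each of the 8 groups. A cap is the prospective ectoderm cut from the embryo, here at stage 8, and a sample pooled 25 caps or 3 whole embryos. Each sample, in Cy3, was hybridized with a common reference of whole embryos pooled over 11 stages, in Cy5, without dye swap. Values are log2 ratios of sample over reference, so 0 means the level of the reference, and a level of one probe cannot be set against that of another. Scanner output was used for 15 arrays. The second array of PVD2 caps at stage 10 entered only through the authors' table of processed values, so elsewhere that group had 1 array, taken to vary like the others.

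Between 50% and 63.6% of all probes were well above background in Cy3 on an array, the lowest shares being 50% and 52% on the 2 control embryo arrays of stage 9, which also had the most spots flagged as outliers in signal (1153 and 460), though the fewest flagged in background (338 and 752). The median net Cy3 signal was 61.0 to 68.4 units in caps and 17.8 to 35.0 units in embryos. Among the 40 pathway probes, 23 were well above background on every array, 14 on some and 3 on none (GDF5, GDF16 and noggin 2). No member was saturated. There were 4 slides, on each of which all arrays were of the same tissue and the same replicate number. Cap slides were scanned on another day than embryo slides, so tissue and slide cannot be told apart, while PVD2 and control arrays shared slides. The position on a slide was fixed by group: control stage 9 at 1, PVD2 stage 9 at 2, control stage 10 at 3 and PVD2 stage 10 at 4. Within a slide, morpholino and stage thus cannot be told apart from position. The p-values measure the spread between 2 replicate samples a group. Unless a block is named the fit had none, so that spread includes shifts shared by arrays of the same replicate number. In RNA from whole embryos and pooled caps, fewer cells of a type and less RNA per cell cannot be told apart.

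The labelled tissues were checked with 16 mesendoderm and 8 ectoderm probes. In control caps against control embryos, 16 of the 16 mesendoderm probes were called lower at stage 10 (median difference −4.60) and 13 at stage 9 (median −2.95). Over all probes, 5.4% were called lower and 4.7% higher at stage 10, and 7.85% and 4.93% at stage 9. One of the 8 ectoderm probes, epidermal cytokeratin, was called higher in caps at both stages, and none was called lower. At stage 10 that probe had a value on only 1 control embryo array. By sign, 6 of the 8 were higher in caps and 2 lower at each stage. With the replicate number as a block, 3 were called higher at stage 10 and 1 lower, Sox3, where 20% of all probes were called. Sox3 stood at 1.75 and 1.78 in control caps of stage 10, against 2.06 and 2.14 in control embryos.

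The 3 pathway genes called for PVD2, derriere, FRL1 and Tgif2, were lower in the mean over both tissues and both stages. Derriere was not lower in whole embryos of the early gastrula. Derriere is a Vg1-related ligand that induces mesoderm in the frog. FRL1 is an EGF-CFC protein of the kind that serves Nodal ligands as a co-receptor. Tgif2 is known in mammals as a corepressor that binds Smads. With limma, the PVD2 effect averaged over both tissues and both stages called 3 members lower and 0 higher. Over all 21420 probes tested, 1.13% were called, 0.957% as lower and 0.173% as higher. The 3 are the probes that the rule gives by name, chosen with earlier results of these data known. All 3 are also in the study's own list of POUV-responsive genes, which was chosen on these arrays. Their calls are thus not independent evidence of the direction, and their count cannot be read against the share over all probes. Of the other 37 pathway probes and the 8 matched only by name, 0 were called. With the replicate number as a block 5 members were called, and 3.07% of all probes. The 5 were the same 3 and 2 of the nuclear receptors matched by name (Nr4a1, adjusted p = 0.026, and nr2e1-A, adjusted p = 0.0439).

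FRL1 was the most even of the 3. In caps it stood at 0.85 on the PVD2 array of stage 10, against 1.66 and 1.59 on the control arrays, and at 0.97 and 0.79 on PVD2 arrays of stage 9, against 1.49 and 1.65 on control arrays. In whole embryos it stood at 0.56 and 0.25 on PVD2 arrays of stage 10, against 1.48 and 1.77 on control arrays, and at 0.85 and 0.93 on PVD2 arrays of stage 9, against 1.60 and 1.90 on control arrays. Every PVD2 array was below every control array, and control caps and control embryos had like values. The mean PVD2 effect was −0.88 on the log2 scale (SE 0.08, 1.85-fold, limma adjusted p = 0.00113), and PVD2 was lower in 7 of 7 pairs of arrays on the same slide. Among the 4 single comparisons the difference was largest in whole embryos at stage 10, −1.22 (SE 0.15, 2.33-fold, limma adjusted p = 0.0246).

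That was the only member called in a single comparison of PVD2 with control, where 0.102% of all probes passed (0.093% as lower and 0.0093% as higher) and 4.41% had an unadjusted p under 0.05, as did 4 members. Without the second PVD2 embryo array of stage 10 its adjusted p was 0.23, without the first or second control embryo array of stage 10 it was 0.0894 and 0.216, and without either control cap array of stage 9 it was 0.0618. In the other 3 comparisons FRL1 differed by −0.78 in caps at stage 10, −0.68 in caps at stage 9 and −0.86 in embryos at stage 9, with limma adjusted p of 0.457, 0.335 and 0.167. Those comparisons called 0.00933%, 0.0559% and 0.00465% of all probes and 0 of the 48 members, of which 5, 4 and 8 had an unadjusted p under 0.05, where 3.27%, 2.89% and 6.74% of all probes did.

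Derriere differed between the tissues far more than between the morpholinos. In caps it stood at −5.35 on the PVD2 array of stage 10, against −3.67 and −2.42 on the control arrays, and at −5.84 and −5.74 on PVD2 arrays of stage 9, against −4.17 and −3.52 on control arrays. In whole embryos the values were 2.70 and 2.85 on PVD2 arrays of stage 10, against 2.56 and 2.86 on control arrays, and 1.41 and 0.78 on PVD2 arrays of stage 9, against 2.01 and 1.76 on control arrays. The groups overlapped in embryos at stage 10 and nowhere else, and the caps were the lower tissue on every array. The mean PVD2 effect was −1.24 (SE 0.20, 2.37-fold, limma adjusted p = 0.0219), made up of −2.30 in caps at stage 10, −1.94 in caps at stage 9, 0.07 in embryos at stage 10 and −0.79 in embryos at stage 9, none of which was called alone.

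The difference between the derriere effect in caps and that in embryos was −1.76 (SE 0.40), with an unadjusted p of 0.00179 and a limma adjusted p of 0.999, so it did not pass. In the test of the PVD2 effect between tissues 0 of the 48 members were called (5 had an unadjusted p under 0.05) and 0% of all probes (3.18% unadjusted), and in that between stages 0 of 48 (0 unadjusted) and 0% (1.59% unadjusted). The derriere call was lost in 7 of the 14 fits that each left out 1 array: those without the second control embryo array of stage 10 (adjusted p = 0.0632), the second control cap array of stage 9 (0.0581), the second PVD2 embryo array of stage 9 (0.0521), the first or second PVD2 embryo array of stage 10 (0.0643 and 0.0591), or the first or second PVD2 cap array of stage 9 (0.0597 and 0.0577). With the slide as a block the difference in caps at stage 9 had an adjusted p of 0.0356.

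The mean log2 ratio over the 16 mesendoderm markers was −2.99 on the PVD2 cap array of stage 10, against −2.82 to −2.49 in control caps, and −3.09 to −3.02 in PVD2 caps of stage 9, against −2.94 to −2.81 in control caps. In whole embryos it was 1.27 to 1.42 in PVD2 at stage 10, against 1.44 to 1.68 in controls, and −0.98 to −0.55 in PVD2 at stage 9, against −0.17 to 0.01 in controls. The mean of −0.98, on the second PVD2 embryo array of stage 9, left out Mix.1, which had no value there. Mix.1 stood at 1.14 on the first PVD2 array of that stage, so −0.98 is not fully comparable with the other means. The mean was thus lower on PVD2 arrays in all 4 comparisons, including embryos at stage 10, where derriere was not. By the averaged PVD2 effect, for which 1.13% of all probes were called (0.957% as lower), 2 of the 16 were called, both lower (median −0.28). Of the 8 ectoderm markers 3 were called, all lower (median −0.54): Sox3 (−0.38), AP-2 (−0.80) and Lhx5 (−1.13). With the replicate block, where 3.07% of all probes were called, Dlx3 and Dlx5 were called as well, both higher. The mean over the 8 ectoderm probes was −0.11 on the PVD2 cap array of stage 10, against −0.06 to 0.23 in control caps, and −0.84 to −0.62 in PVD2 caps of stage 9, against −0.79 to −0.75 in control caps. In whole embryos it was −1.29 to −0.74 in PVD2 at stage 10, against −0.48 to 0.22 in controls, and −2.08 to −1.71 in PVD2 at stage 9, against −1.50 to −1.27 in controls. The mean of 0.22, on the second control embryo array of stage 10, left out epidermal cytokeratin, which had no value there. That probe stood at −6.06 on the first control array of that stage, so 0.22 is not comparable with the other means. The part of either list in the results on derriere, FRL1 and Tgif2 was not tested.

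Tgif2 was lower with PVD2 in both tissues. In caps it stood at 1.27 on the PVD2 array of stage 10, against 2.28 and 1.65 on control arrays, and at 0.88 and 0.93 on PVD2 arrays of stage 9, against 1.26 and 1.24 on control arrays. In whole embryos it stood at 0.72 and 1.01 on PVD2 arrays of stage 10, against 2.10 and 1.90 on control arrays, and at 0.36 and 0.62 on PVD2 arrays of stage 9, against 1.11 and 1.05 on control arrays. PVD2 and control did not overlap within any tissue and stage. The mean PVD2 effect was −0.69 (SE 0.10, 1.62-fold, limma adjusted p = 0.0122), lower in 7 of 7 pairs on the same slide, and it was called whichever array was left out. The call was lost with normexp fitted on all spots (adjusted p = 0.0903) and with median centring (0.0548). In embryos at stage 10 alone it was −1.14 (SE 0.19), with a limma adjusted p of 0.0952, and of 0.0365 with the replicate number as a block.

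**Figure D1:**
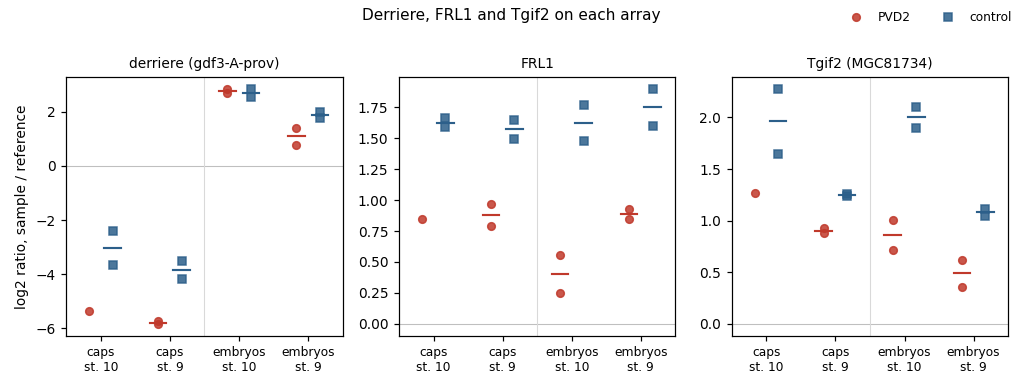
Derriere, FRL1 and Tgif2 on each of the 15 arrays: the y axis gives the log2 ratio of sample over common reference, the x axis caps and whole embryos at stage 10 and stage 9, with PVD2 (red circles) beside control (blue squares) and lines at the mean of 2 arrays. FRL1 and Tgif2 lie lower with PVD2 in all 4 tissue and stage combinations, while derriere lies below −2 in caps, lowest with PVD2, and its PVD2 and control embryos overlap at stage 10.

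The other 37 pathway probes were not called, with averaged PVD2 effects between −0.63 and 0.31 and a median of −0.03, against −0.01 over all probes. Of these 37, 4 had an unadjusted p under 0.05, where 8.08% of all probes did. The lowest was lefty, at −0.63 (SE 0.28, limma adjusted p = 0.624), which was lower on the PVD2 array in 7 of 7 pairs on the same slide, by between −1.51 and −0.06. Lefty's PVD2 arrays spread widely, with −0.39 and −2.23 in caps of stage 9 and 1.03 and −0.04 in embryos of stage 9. The highest was Xnr5 at 0.31 (SE 0.12, limma adjusted p = 0.487).

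Among the other Nodal-related ligands, which signal through Nodal receptors except for Xnr3, a divergent member that is expressed in the organizer, the averaged effect was 0.08 for Xnr1, 0.24 for Xnr6, −0.17 for Xnr3 and −0.35 for Xnr4. For Xnr5 in whole embryos the values were 0.94 and 1.58 on PVD2 arrays of stage 10, against 0.54 and 0.61 on control arrays, and 2.15 and 2.16 on PVD2 arrays of stage 9, against 1.82 and 1.35 on control arrays. The PVD2 arrays were the higher ones at both stages, but neither difference was called (0.68 at stage 10 and 0.57 at stage 9, limma adjusted p = 0.693 and 0.713), and the sign turned under some of the alternatives at both stages (lowest −0.03 and −0.39).

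For BMP ligands the averaged PVD2 effects were 0.20 for BMP2 (Xbr7), −0.20 for BMP2 (Xbr22), −0.31 for BMP7 (bmp7-prov) and −0.16 for BMP7 (MGC68434), each with a limma adjusted p of at least 0.306. The BMP antagonists chordin (−0.16, SE 0.20), noggin (−0.08, SE 0.05) and noggin 2 (−0.13, SE 0.08), and cerberus (−0.37, SE 0.16), which binds both Nodal and BMP ligands, were not called either. In whole embryos of stage 9, 4 of the 7 antagonists had an unadjusted limma p under 0.05, where 6.74% of all probes did. The 7 include noggin and noggin 2, both dim in control embryos of that stage. Noggin was well above background on 5 arrays and noggin 2 on none. In embryos of stage 10 and in caps of both stages 0 of the 7 did. Cerberus in whole embryos of stage 9 was at −2.85 and −3.85 on PVD2 arrays, against −2.64 and −2.14 on control arrays (difference −0.96, SE 0.30, limma adjusted p = 0.662). Those control arrays are the 2 with the fewest probes above background.

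The 7 receptors lay within −0.09 and 0.23 of control, the upper value being that of sax, a type I receptor of the ALK2 kind, and the 5 Smads and partners other than Tgif2 within −0.17 and 0.19. The spread was wide for Smad1 (SE 0.38), whose values went with the replicate number: between −0.90 and −0.48 on every array of replicate 1 and between 0.12 and 0.76 on every array of replicate 2. Between arrays on the same slide, PVD2 minus control ran from −0.25 to 0.16 for the activin type IIA receptor (Acvr2), lower in 6 of 7 pairs. For core probes outside the name rule it ran from −0.09 to 0.61 for Smad7, higher in 5 of 7 pairs. For the BMP receptor IA probes it ran from −0.37 to 0.27 (LOC397711) and from −0.35 to 0.19 (LOC397712).

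**Figure D2:**
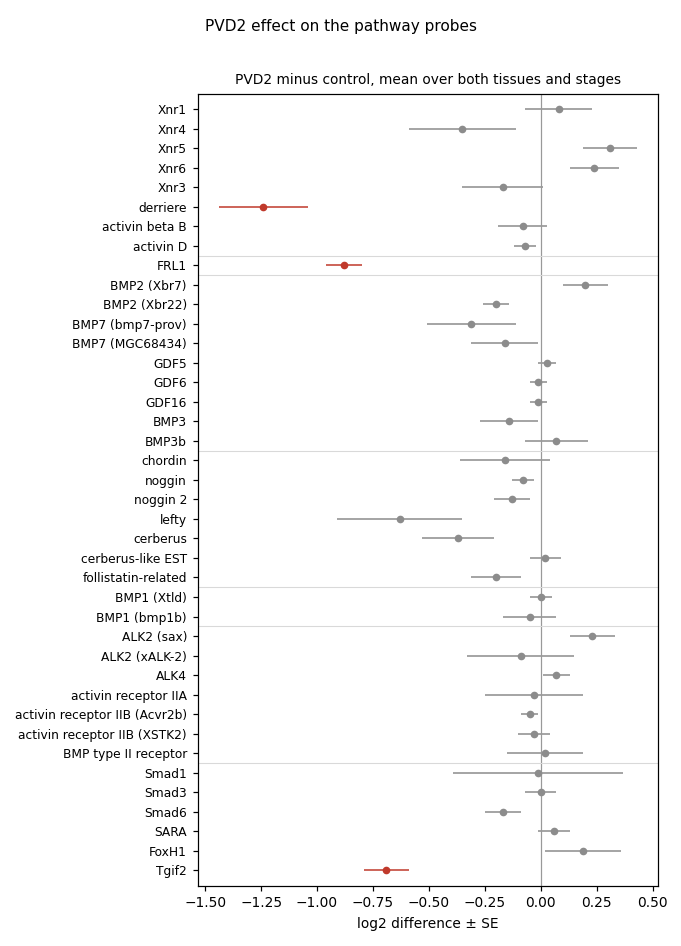
Averaged PVD2 effect on the 40 pathway probes, in order of role: the x axis gives the log2 difference, PVD2 minus control, over both tissues and both stages, with bars of 1 SE, and grey lines divide ligands, co-receptor, BMP and GDF ligands, antagonists, proteases, receptors and Smads. Derriere (−1.24), FRL1 (−0.88) and Tgif2 (−0.69) are the 3 in red, called by limma, and the 37 others, in grey, lie between −0.63 and 0.31.

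Genes that the pathways switch on were counted from 2 lists of genes outside the rule. All 11 Nodal or activin responders are also among the 16 mesendoderm markers above. The 2 of them called here are the same 2 as in that count, so this is not a second result. By the averaged PVD2 effect, for which 0.957% of all probes were called lower, 2 of 11 genes known to respond to Nodal or activin were lower, Bix3 (−0.91, SE 0.14, limma adjusted p = 0.0152) and Xbra (−0.77, SE 0.12, limma adjusted p = 0.017), 0 were higher, and the median was −0.42. Of 7 BMP responders, 3 were lower: Ventx1 (−1.29, SE 0.16, limma adjusted p = 0.00521), Ventx2 (−1.09, SE 0.16, limma adjusted p = 0.013) and an EST similar to Xvent-1 (−0.84, SE 0.16, limma adjusted p = 0.0464), with a median of −0.28. Bix3 and Xbra encode mesendoderm transcription factors, and Ventx1 and Ventx2 are ventral homeobox repressors. Of 16 further pathway genes, such as BAMBI, Coco, gremlin and Smurf1, 0 were called by limma (4 had an unadjusted p under 0.05, where 8.08% of all probes did). With the replicate block, a count added after the values had been seen, 2 of these 16 were called lower, sizzled and xolloid-like, where 3.07% of all probes were called. The counts on the 2 responder lists stayed at 2 and 3, of the same genes. Sizzled and BAMBI also respond to BMP and were planned for that list too, but were counted only among the 16. The EST had no match among the RefSeq names. Whether it and the Ventx1 probe stand for the same gene was not checked. Sizzled was lower with PVD2 in 6 of 7 pairs of arrays on the same slide. Between arrays on the same slide Bix2, Bix4 and Eomes were lower with PVD2 in 7 of 7 pairs and Mix.1 in 6 of 6. Smurf1 was higher in 7 of 7, by 0.06 to 0.41, and BAMBI in 7 of 7, by between 0 (rounded) and 0.37. Bix2, Bix4, Eomes, Mix.1, Smurf1 and BAMBI were not called for PVD2. These genes are named, from the lists of this paragraph only, because their pairs had 1 sign. The share of all probes with such pairs was not counted.

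Between the tissues the calls made without a block differed by role. At stage 10, 12 of the 48 members were lower and 3 higher in control caps than in control embryos, where 10.1% of all probes were called, 5.4% as lower and 4.7% as higher. At stage 9, 12 were lower and 5 higher, where 12.8% of all probes were called, 7.85% as lower and 4.93% as higher. At an unadjusted p under 0.05 the members numbered 20 at stage 10 and 21 at stage 9, and the shares of all probes were 23.6% and 25.6%. Of the 8 Nodal and activin ligands, 6 were lower in caps at stage 10 and 7 at stage 9, and of the 7 antagonists, 5 and 4. The 9 BMP and GDF ligands had 0 calls at stage 10 by limma (3 with an unadjusted p under 0.05) and 1 higher at stage 9. With the replicate block 22 members were called at stage 10 and 21 at stage 9, where 20% and 22.4% of all probes were called. The calls made without it were all among them. Those gained at stage 10 were BMP3, BMP7 (bmp7-prov), the BMP1-type protease BMP-1, xALK-2, the BMP type II receptor, activin beta B and Nr2f6. At stage 9 they were lefty, BMP-1, Nr2f1 and Nr2f6. Without the block, 1 of the 7 receptors was higher and 1 lower at stage 10 and 1 higher at stage 9. Of the 6 Smads and partners, 1 was higher at each stage. The medians over the 48 members were −0.04 at stage 10 and −0.20 at stage 9, against 0.00 and −0.01 over all probes.

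Derriere had the largest difference of the members well above background in both tissues. With the control values already given, it was 53.9-fold lower in caps at stage 10 (difference −5.75, SE 0.38, limma adjusted p = 5.17e-05) and 53.1-fold lower at stage 9 (−5.73, SE 0.38, limma adjusted p = 8.56e-05). It was still well above background on every cap array.

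Xnr3 stood at −1.38 and −1.67 in control caps of stage 10, against 3.75 and 3.22 in control embryos, and at −1.15 and −1.62 in control caps of stage 9, against 3.33 and 2.37 in control embryos. The cap and embryo arrays lay far apart. At stage 10 it was not well above background in caps, and the difference was −5.01 (SE 0.34, limma adjusted p = 6.02e-05). The bound from the channel intensities, which were normalized apart from the ratios, was at least 32.4-fold lower. At stage 9 it was well above background on 1 of the 2 control cap arrays, and the difference was −4.24 (SE 0.34, limma adjusted p = 0.000261). In the authors' table of processed values the differences were −8.83 at stage 10 and −6.72 at stage 9.

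Xnr1, a Nodal ligand of the vegetal cells and the organizer, stood at −1.22 and −0.97 in control caps of stage 10, against 1.51 and 1.67 in control embryos, and at −0.91 and −1.11 in control caps of stage 9, against 1.35 and 1.38 in control embryos. It was 6.43-fold lower in caps at stage 10 (−2.69, SE 0.28, limma adjusted p = 0.000808) and 5.17-fold lower at stage 9 (−2.37, SE 0.28, limma adjusted p = 0.00137). With the Feature Extraction log ratio the differences were −4.00 and −4.01. With normexp fitted on all spots the stage 9 call was lost (adjusted p = 0.0553).

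Xnr4 stood at −0.29 and −0.68 in control caps of stage 10, against 1.91 and 1.11 in control embryos, and at −1.75 and −1.73 in control caps of stage 9, against 2.34 and 1.54 in control embryos. It was 3.98-fold lower in caps at stage 10 (−1.99, SE 0.45, limma adjusted p = 0.0241) and 12.8-fold lower at stage 9 (−3.67, SE 0.45, limma adjusted p = 0.0015). At stage 9 the difference was −5.54 with the Feature Extraction log ratio. With normexp fitted on all spots the calls were lost at stage 10 (adjusted p = 0.175) and stage 9 (0.0768). The caps were higher at stage 10 than at stage 9 by 1.25 (SE 0.45, limma adjusted p = 0.343), a difference that was called with the replicate block (0.0368). The stage 10 call between tissues was lost without the first control embryo array of that stage (adjusted p = 0.125) and without the first or second control cap array (0.0782 and 0.14).

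Xnr5 and Xnr6, which are switched on early in vegetal cells, were not well above background on any cap array. In control embryos Xnr5 stood at 0.54 and 0.61 at stage 10 and at 1.82 and 1.35 at stage 9, and Xnr6 at 0.78 and 0.48 at stage 10 and at 1.83 and 1.22 at stage 9. Against these, Xnr5 was at least 2.14-fold lower in control caps at stage 10 (−1.23, limma adjusted p = 0.00883) and at least 3.55-fold lower at stage 9 (−2.29, limma adjusted p = 0.000567), and Xnr6 at least 2.33-fold and at least 3.70-fold lower (−1.34 and −2.20, limma adjusted p = 0.00405 and 0.000453). The 2 ligands were thus lower in caps at both stages. Since caps gave only bounds, the stages cannot be set against each other. With the Feature Extraction log ratio the differences at stage 10 and stage 9 were −4.48 and −7.22 for Xnr5 and −4.64 and −6.17 for Xnr6. With normexp fitted on all spots both calls at stage 10 (adjusted p = 0.118 and 0.0987) and the Xnr6 call at stage 9 (0.0566) were lost. At stage 10 the Xnr5 call was lost without the second control embryo array (adjusted p = 0.0594) and without the first or second control cap array (0.051 and 0.0582).

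The activin subunits behaved otherwise. Activin beta B (Inhbb) was −1.35 and −0.98 in control caps of stage 10, against −1.95 and −1.86 in control embryos, a difference of 0.74 (SE 0.20, limma adjusted p = 0.0518) that was not called here but was with the replicate block (0.00381), and −1.77 and −1.59 in control caps of stage 9, against −1.81 and −1.16 in control embryos (−0.20, SE 0.20, limma adjusted p = 0.628). It was not well above background in control embryos. Activin D, well above background on 1 array, was lower in control caps at stage 9 by −0.38 (SE 0.10, limma adjusted p = 0.0409), too dim in caps to give a fold above 1. In the authors' table it was −2.50. That call was kept in 4 of the 15 fits without 1 array, and without the second control embryo array of stage 9 the adjusted p was 0.24.

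**Figure D3:**
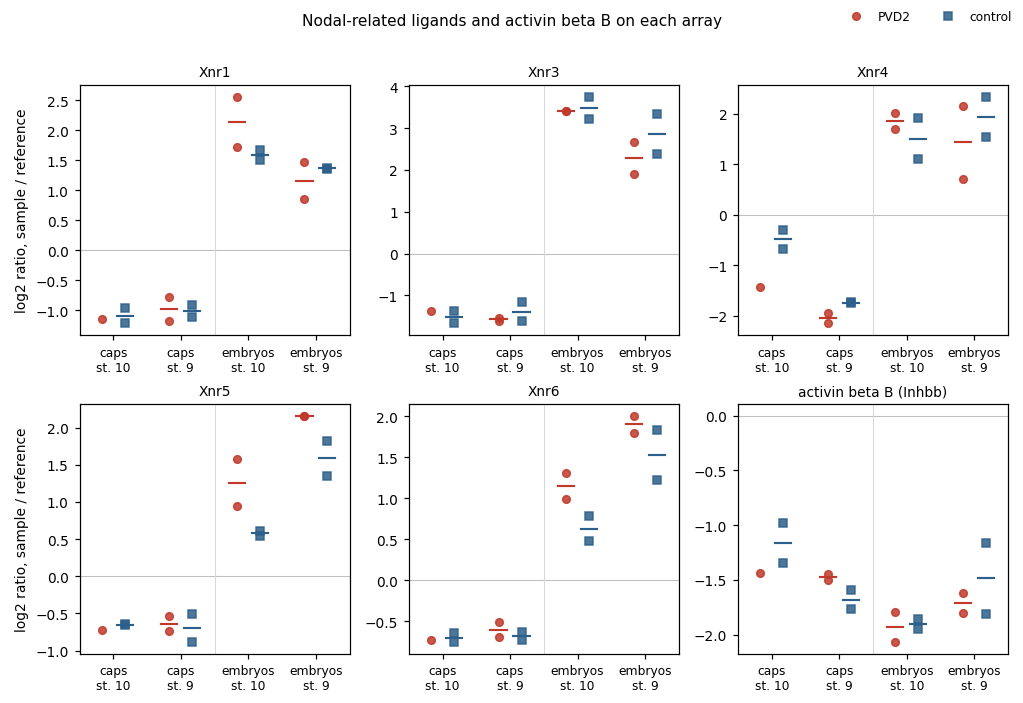
Xnr1, Xnr3, Xnr4, Xnr5, Xnr6 and activin beta B on each of the 15 arrays: the y axis gives the log2 ratio of sample over common reference, the x axis tissue and stage, with PVD2 (red circles) beside control (blue squares) and lines at the mean of 2 arrays. All 5 Nodal-related ligands lie lower in caps than in embryos, with no called difference between PVD2 and control, and activin beta B lies below 0 throughout.

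FRL1, in contrast to the ligands, did not differ by a called amount between control caps and control embryos (caps minus embryos 0.00 at stage 10 and −0.18 at stage 9, SE 0.15 each, limma adjusted p = 0.996 and 0.516). The same held for Tgif2 (−0.04 and 0.17, SE 0.19 each), Smad3 (0.12 and 0.17, SE 0.12 each), Smad6, an inhibitory Smad (0.01 and −0.06, SE 0.15 each), FoxH1, the forkhead partner of Smad2 (−0.48 and −0.31, SE 0.31 each), and ALK4, the type I activin and Nodal receptor (−0.01 and 0.22, SE 0.11 each).

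Chordin, the BMP antagonist of the organizer, stood at −3.89 and −4.68 in control caps of stage 10, against 0.91 and 1.32 in control embryos, and at −4.26 and −4.80 in control caps of stage 9, against −0.50 and −0.76 in control embryos. It was 42.3-fold lower in caps at stage 10 (−5.40, SE 0.39, limma adjusted p = 7.73e-05) and 15.0-fold lower at stage 9 (−3.90, SE 0.39, limma adjusted p = 0.000656). Noggin, dim in most samples, was at −0.64 and −0.62 in control caps of stage 10, against 0.34 and 0.26 in control embryos, at least 1.58-fold lower (−0.93, SE 0.10, limma adjusted p = 0.000939, and −4.12 with the Feature Extraction log ratio). At stage 9 noggin (−0.64) and noggin 2 (−0.72) were called lower in caps with limma adjusted p of 0.00419 and 0.0175, but both were dim in both tissues, which leaves no fold. With the Feature Extraction log ratio they were −2.62 and −1.84. The noggin 2 call was lost without the second control embryo array (adjusted p = 0.0903) and without the first or second control cap array (0.0988 and 0.0646) of stage 9.

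Lefty stood at −0.50 and −0.20 in control caps of stage 10, against 2.45 and 2.22 in control embryos, 6.43-fold lower (−2.68, SE 0.53, limma adjusted p = 0.0141). At stage 9 it stood at −0.13 and −0.72 in control caps, against 1.39 and 1.17 in control embryos, a difference of −1.71 (SE 0.53, limma adjusted p = 0.0691) that passed with the replicate block (0.0163). Caps and embryos did not overlap at either stage. The call at stage 10 was lost without any 1 of these 4 control arrays of that stage, with adjusted p between 0.065 and 0.0846. The follistatin-related probe xFRP differed by 0.08 at stage 10 and −0.32 at stage 9 (SE 0.20 each) and was not called.

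Cerberus, a secreted head inducer of the anterior endomesoderm, had the largest change of any member with stage. In control embryos it stood at 1.74 and 1.70 at stage 10 and at −2.64 and −2.14 at stage 9, 17.3-fold higher at stage 10 (4.11, SE 0.30, limma adjusted p = 0.000387). In control caps it stood at −4.01 and −3.76 at stage 10 and at −4.20 and −3.67 at stage 9, a difference of 0.05 (SE 0.30, limma adjusted p = 1). The embryo arrays of the 2 stages were far apart and the cap arrays overlapped. Set against the embryos, the caps were 48.6-fold lower at stage 10 (−5.60, SE 0.30, limma adjusted p = 1.96e-05) and 2.92-fold lower at stage 9 (−1.55, SE 0.30, limma adjusted p = 0.011). Without the second control embryo array or without the first control cap array of stage 9, the adjusted p at stage 9 was 0.0827 and 0.0755.

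PVD2 embryos had the same course, with cerberus at 1.29 and 1.34 at stage 10 and at −2.85 and −3.85 at stage 9. An EST similar to cerberus (BG160114) was also higher in control embryos at stage 10, by 0.92 (SE 0.13, limma adjusted p = 0.00603), and lower in caps at that stage, by −0.90 (SE 0.13, limma adjusted p = 0.00327). With the Feature Extraction log ratio these values were 3.26 and −2.48.

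BMP ligands had few calls between the tissues. BMP2 (Xbr22) was at 1.07 and 1.25 in control caps of stage 9, against 0.51 and 0.34 in control embryos, 1.67-fold higher (0.74, SE 0.12, limma adjusted p = 0.00459), and did not differ by a called amount at stage 10 (0.16, SE 0.12, limma adjusted p = 0.484). The other BMP2 probe (Xbr7) differed by −0.45 at stage 10 and −0.42 at stage 9 (SE 0.20 each, limma adjusted p = 0.206 and 0.224), with the opposite sign at both stages. By their RefSeq names the probes stand for the 2 homeologous BMP2 genes, bmp2.L (Xbr22) and bmp2.S (Xbr7). The BMP7 probes, of which MGC68434 had no match among the RefSeq names, also had opposite signs, at −1.31 for bmp7-prov (SE 0.37, limma adjusted p = 0.0566, 0.0223 with the replicate block) and 0.48 for MGC68434 (SE 0.29, limma adjusted p = 0.38) at stage 10, and −0.73 and 0.45 at stage 9. GDF5 and GDF16 were dim on every array and GDF6 on all but 1. BMP3 and BMP3b were well above background on 5 arrays each, and none of these 5 was called without a block. With the replicate block BMP3 was called higher in caps at stage 10, where 20% of all probes were called.

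Among receptors, Acvr2b, an activin type IIB receptor, stood at 0.86 and 0.93 in control caps of stage 10, against 0.43 and 0.46 in control embryos, and at 0.95 and 1.04 in control caps of stage 9, against 0.43 and 0.40 in control embryos. It was 1.37-fold higher in caps at stage 10 (0.45, SE 0.08, limma adjusted p = 0.00848) and 1.50-fold higher at stage 9 (0.58, SE 0.08, limma adjusted p = 0.00228), with no overlap of arrays. Without the second control cap array of stage 10 the adjusted p at that stage was 0.0683. XSTK2, the probe of the homeologous type IIB gene, differed by 0.15 at stage 10 and −0.07 at stage 9 (SE 0.12 each) and was not called. Sax was lower in caps at stage 10 by −0.67 (SE 0.18, limma adjusted p = 0.0476), a call kept in 5 of the 15 fits without 1 array and farthest from the threshold without the first control cap array of stage 10 (−0.46, adjusted p = 0.259). The other ALK2 probe, xALK-2, had the largest receptor difference at stage 10, −1.0 (SE 0.46, limma adjusted p = 0.231). It was called with the replicate block (0.000861). So was the BMP type II receptor, at 0.44 (SE 0.33, limma adjusted p = 0.498, and 0.0446 with the block). SARA, the anchor that brings Smads to the activated receptor in mammals, stood at 0.19 and 0.46 in control caps of stage 10, against −0.24 and −0.28 in control embryos, and was higher by 0.59 (SE 0.14, limma adjusted p = 0.0289) at stage 10 and 0.55 (SE 0.14, limma adjusted p = 0.0311) at stage 9. The SARA call was lost at stage 10 without either control embryo array or the second control cap array of that stage (adjusted p = 0.0899, 0.137 and 0.185), and at stage 9 without the first control embryo array or either control cap array (0.131, 0.0735 and 0.176). With the Feature Extraction log ratio the SARA differences were 1.62 and 1.92. A BMP receptor IA probe outside the name rule, LOC397712, was also higher in caps, by 0.99 and 0.79 (SE 0.12 each, limma adjusted p = 0.00141 and 0.00341), while the other one, LOC397711, was not called (−0.60 and −0.53, SE 0.23 each).

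**Figure D4:**
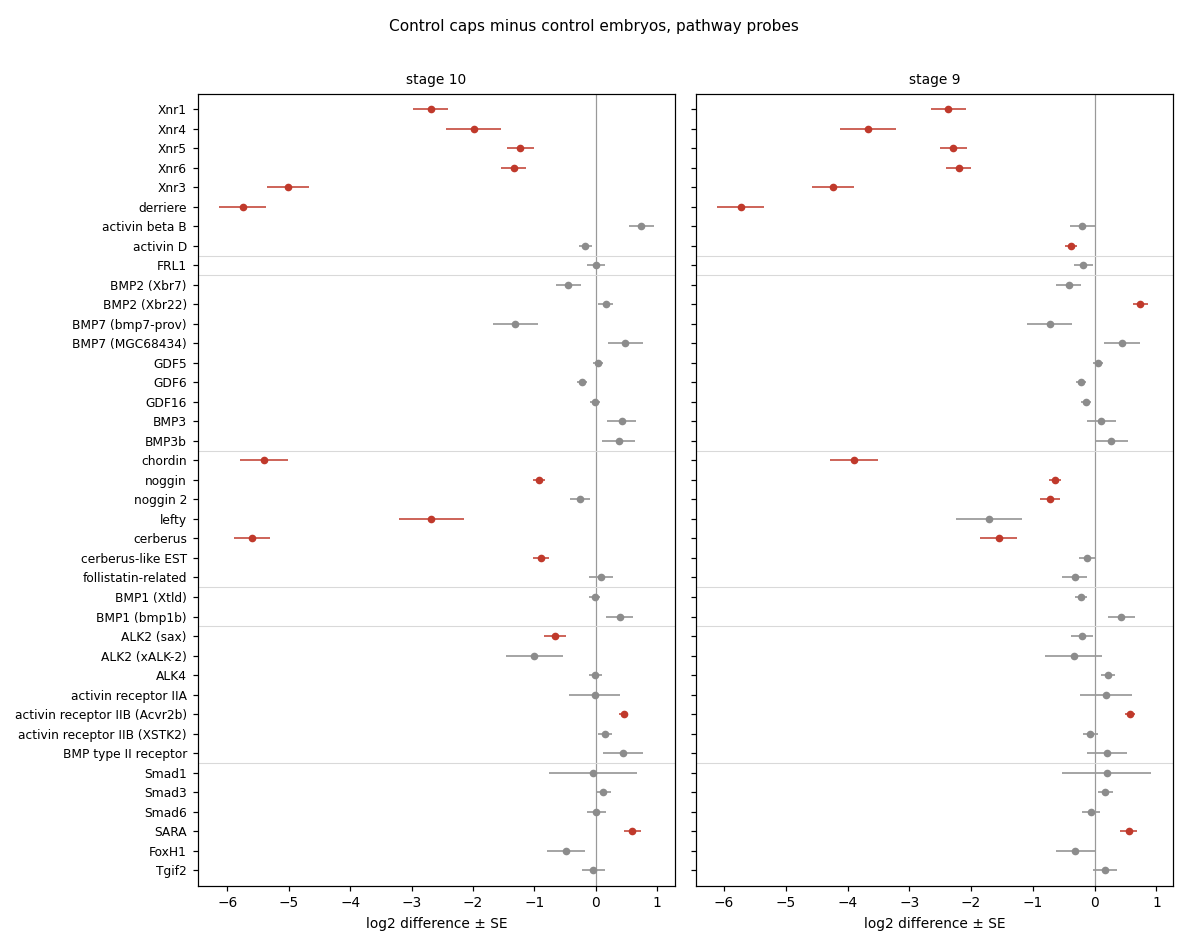
Control caps minus control embryos for the 40 pathway probes, at stage 10 and at stage 9: the x axis gives the log2 difference with bars of 1 SE, probes run down the page in order of role, and red marks those called by limma. Derriere, Xnr3 and chordin lie far to the left at both stages, down to −5.75 for derriere, and so does cerberus at stage 10. BMP ligands, receptors and Smads lie between −1.31 for BMP7 (bmp7-prov) and 0.74 for BMP2 (Xbr22). At stage 10 Xnr5 (−1.23) and Xnr6 (−1.34) lie level with that BMP7 probe, and cerberus lies at −1.55 at stage 9.

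Stage changed fewer members. At stage 10 against stage 9, 3 members were higher and 2 lower in control embryos, where 2.62% of all probes were called (1.11% higher and 1.51% lower), and 2 were lower in control caps, where 1.79% were called (0.722% higher and 1.07% lower). At an unadjusted p under 0.05 there were 13 members in embryos and 11 in caps, and 11.7% and 9.13% of all probes. With the replicate block 11 and 7 members were called, and 6.94% and 4.51% of all probes. The calls made without it were all kept. In embryos the 5 were cerberus, its related EST, Tgif2, Xnr5 and the mineralocorticoid receptor Nr3c2, which is a member by name only. Tgif2 was at 2.10 and 1.90 in control embryos of stage 10, against 1.11 and 1.05 at stage 9 (0.93, SE 0.19, limma adjusted p = 0.0352), and higher also in caps, by 0.71 (SE 0.19, limma adjusted p = 0.134). Xnr5 fell to the values of stage 10 given above, a difference of −1.01 (SE 0.22, 2.02-fold, limma adjusted p = 0.0468), or −2.54 with the Feature Extraction log ratio. The Tgif2 call was kept in 5 and the Xnr5 call in 3 of the 15 fits without 1 array, the Xnr5 call being lost most widely without the first control embryo array of stage 10 (adjusted p = 0.204).

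Xnr6 differed alike in embryos, by −0.89 (SE 0.20, limma adjusted p = 0.054), and chordin by 1.74 (SE 0.39, limma adjusted p = 0.0523), both called with the replicate block (0.0115 and 0.0119). In caps BMP2 (Xbr22) was at 0.06 and 0.22 at stage 10, against 1.07 and 1.25 at stage 9, 2.03-fold lower (−1.02, SE 0.12, limma adjusted p = 0.00444). Without the first control cap array of stage 10 its adjusted p was 0.0528. In embryos this probe differed by −0.45 (SE 0.12, limma adjusted p = 0.11), a difference that was called with the replicate block. Over both tissues it was lower at stage 10 in all 4 pairs of control arrays on a slide, by between −1.03 and −0.43. The Xbr7 probe was lower at stage 10 in all 4 pairs of control arrays on a slide, by between −0.96 and −0.58, with limma adjusted p of 0.118 in caps and 0.106 in embryos, and of 0.0493 and 0.044 with the replicate block.

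The stage difference itself differed between the tissues for 1 member, cerberus, by −4.06 in caps minus embryos (SE 0.43, limma adjusted p = 0.0194), where 0.0466% of all probes were called, 0.0326% as lower and 0.014% as higher, and 4.2% had an unadjusted p under 0.05, as did 9 members. This comparison was added after the values had been seen. For Xnr4 and Xnr5 the difference was 1.68 and 1.06 and for chordin −1.50, with limma adjusted p of 1, 0.815 and 1.

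**Figure D5:**
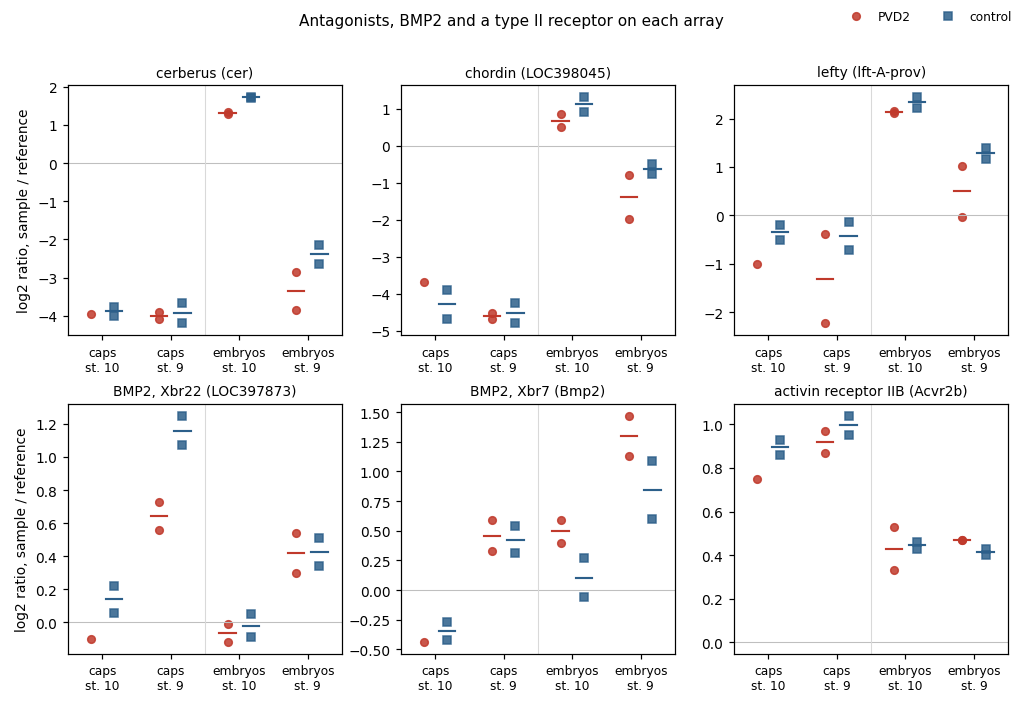
Cerberus, chordin, lefty, both BMP2 probes and activin receptor IIB on each of the 15 arrays: the y axis gives the log2 ratio of sample over common reference, the x axis tissue and stage, with PVD2 (red circles) beside control (blue squares) and lines at the mean of 2 arrays. Cerberus lies above 1 only in embryos of stage 10, chordin and lefty lie lower in caps than in embryos, BMP2 (Xbr22) is highest in control caps of stage 9, and the receptor lies higher in caps.

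Of the 8 members matched only by name, none was called by limma for the averaged PVD2 effect (2 had an unadjusted p under 0.05). Nr4a1 was higher in control caps than in control embryos, by 0.87 at stage 10 (SE 0.15, limma adjusted p = 0.00677) and 0.81 at stage 9 (SE 0.15, limma adjusted p = 0.00736). Nr3c2 was lower at stage 10 than at stage 9 in caps (−1.17, SE 0.14, limma adjusted p = 0.00509) and in embryos (−0.78, SE 0.14, limma adjusted p = 0.0215). At stage 9 the germ cell nuclear factor nr6a1 (GCNF) was higher in caps by 0.26 (SE 0.07, limma adjusted p = 0.0399), and Nr2f2, dim in control embryos but not in control caps, was lower by −0.99 (SE 0.26, limma adjusted p = 0.0396). The sign of the Nr2f2 difference turned with the Feature Extraction log ratio and in the authors' table. The GCNF and Nr2f2 calls were kept in 4 and 6 of the 15 fits without 1 array, with adjusted p up to 0.208 and 0.226, both without the second control embryo array of stage 9.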

How the data were processed

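Scanner output of 15 arrays (16 in the authors' table of processed values) was grouped by the labels into 8 groups of 2 replicates. Unnormalized intensity values of every spot (mean signal, median background nearby) came from the Feature Extraction 9.5.1.1 output that the authors deposited. That output also has a deposited log10 ratio, red over green, after the software had subtracted background and balanced the dyes, and here it was negated to give sample over reference. The authors' table holds log10 values whose scale is not given in the sources used here. Differences between its arrays followed those of the Feature Extraction log ratio (r 0.948 to 0.992 over all probes, which are not independent replicates), and it was used for such differences only. No genome build applies to these probes.

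Spots flagged as outliers in signal or background were left out, normexp (offset 50) was used against background, log2 ratios were normalized by loess within each array with the 1417 control spots at weight 0, and the 2 spots a probe were averaged. Leaving out flagged spots before the normexp fit was chosen after seeing the data, from the spread of the ratios and not from the calls. On 6 arrays 1 to 22 flagged spots had a background more than 50 units above their signal, and with all spots in the fit the interquartile range of the log2 ratio was 0.04, 0.17 and 0.20 on 3 arrays and at least 0.35 on the others. With them left out it was 0.37 to 0.50 on all 15. The fit on all spots is kept as an alternative. The offset draws ratios of dim probes towards 0.

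The model in limma 3.58.1 (R 4.3.3, statmod 1.5.0) had a mean for each group and no block, eBayes drew on all 21495 probes, and calls were made at a Benjamini-Hochberg FDR of 0.05. The procedure was tested on simulated data with noise drawn independently for each array. That simulation did not cover the correlation between arrays of the same replicate number given below. A probe is dim in a group where no array of it was well above background, and a fold against it is a lower bound from the channel intensities. Where both groups were dim no fold is given. Deviations of arrays with the same replicate number correlated in all 6 pairs of embryo groups (r 0.588 to 0.814), all 3 pairs of cap groups (r 0.718 to 0.812) and all 12 pairs across tissues (r 0.507 to 0.728), so the numbers pair the arrays. Each slide held 1 number and 1 tissue. Alternatives were no background correction, the Feature Extraction log ratio, median centring, the authors' table of 16 arrays, only the 14970 probes well above background on at least 2 arrays, replicate or slide as a block, and each array left out in turn, which leaves 1 array in a group that is then taken to vary like the others.

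The members and lists were chosen with earlier results of these data known. Named were the 3 probes given by name, every member called for PVD2, up to 10 called members with the largest difference per tissue or stage comparison, and the core genes of the pathways whatever their values. For Smad7 and Acvr2 only the PVD2 differences are given, and for Smad1 no tissue or stage difference. Smad1 was called higher at stage 10 than at stage 9 in control embryos with the replicate block. The members held no probe named for Xnr2, Vg1, Smad2, Smad4 or Smad5. A probe named Mad2, which could be a Smad or a spindle checkpoint gene, was not matched by the rule and was left out. Other named members were chosen after their values were seen. Gene names are those of the array, checked against a RefSeq table where a match was found, and no sequence is printed. Among the members, MGC81734 (Tgif2), MGC68434, BG160114 and nr6a1 had no match, so the name Tgif2 was not checked in this way. Some probes of the other lists had no match either.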

Additional observations from a re-analysis of the deposited data

Results flagged for a closer look

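One result stood out because the difference between the stages was itself different in the 2 tissues. The stage difference of cerberus was 0.05 in control caps and 4.11 in control embryos (log2, stage 10 minus stage 9), and the first minus the second was −4.06 (SE 0.43, limma adjusted p = 0.0194, 10 of 21450 probes called). On the slides the stage difference was 0.20 and −0.09 in caps and 4.38 and 3.84 in embryos. The caps lay on other slides, scanned on another day, than the embryos, and each slide held arrays of both stages. The sign was the same under every alternative tried, between −4.46 and −3.79, and the adjusted p lay between 0.001 and 0.125. The call was lost with the Feature Extraction log ratio and in 7 of the 15 fits that left out 1 array, those without either control embryo array of stage 10, either control cap array of stage 9, the first control cap array of stage 10, or either PVD2 embryo array of stage 10.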

How the results depend on the processing

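At most 2 arrays a group limit every value, and probes near background have only bounds. Of 46 called differences of single probes, 1 changed sign: Nr2f2, caps minus embryos at stage 9, was 0.56 with the Feature Extraction log ratio and 0.56 with the authors' table. The FRL1 mean PVD2 effect was called under every alternative, that of derriere under every alternative but 7 of the fits without 1 array, and that of Tgif2 under every alternative but normexp fitted on all spots (adjusted p = 0.0903) and median centring (0.0548). The cause of changes was not tested.

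Counts of members called moved as follows. For the averaged PVD2 effect (3 as reported) the replicate block and the slide block gave 5 each. For PVD2 in embryos at stage 10 (1) both blocks gave 2, and the Feature Extraction log ratio, median centring, normexp on all spots and the authors' table gave 0. In embryos at stage 9 (0) the Feature Extraction log ratio and the authors' table gave 2. There they called 2.63% and 3.18% of all probes, against 0.00465% as reported. In caps at stage 9 (0) the slide block gave 1. For stage in embryos (5) the counts were 8 with the Feature Extraction log ratio, 3 with median centring, 2 with normexp on all spots, 10 with the authors' table and 11 with either block, and for stage in caps (2) they were 7 with the replicate block and 6 with the slide block. For caps minus embryos at stage 9 (17) and stage 10 (15), normexp on all spots gave 5 and 8. For the stage difference between tissues (1) the Feature Extraction log ratio gave 0. The replicate block lost no call of a member in any comparison.

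Leaving out 1 array gave 2 to 4 members for the averaged PVD2 effect, 0 to 2 for PVD2 in embryos at stage 10 and 0 to 2 at stage 9, 0 to 0 in caps at both stages, 2 to 5 for stage in embryos, 1 to 3 for stage in caps, 9 to 17 for caps minus embryos at stage 10 and 11 to 20 at stage 9, and 0 to 1 for the stage difference between tissues. The lowest counts for caps minus embryos came without the second control cap array of stage 10 (9 at stage 10), and without the second control embryo array or either control cap array of stage 9 (11 at stage 9).

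Over all probes, normexp on all spots called 88 for the averaged PVD2 effect, against 242 as reported, and 578 and 220 for caps minus embryos at stage 10 and stage 9, against 2170 and 2744. The replicate and slide blocks called 3.07% and 3.56% of all probes for the averaged PVD2 effect, against 1.13% as reported. For stage they called 6.94% and 8.02% in embryos, against 2.62%, and 4.51% and 5.5% in caps, against 1.79%. For PVD2 in embryos at stage 10 they called 0.484% and 0.591%, against 0.102%. In caps at stage 9 the slide block called 0.368% for PVD2, against 0.0559%. For stage in embryos the Feature Extraction log ratio and the authors' table called 6.18% and 6.24%. Median centring and normexp on all spots called 1.69% and 1.05% there.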
